A study of Mus musculus with 16 samples.

Results

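The kinesin, dynein and dynactin genes encode the subunits of the microtubule motors, and their transcripts were compared across compartments and genotypes of cultured mouse motoneurons. All protein-coding genes whose symbols begin with Kif or Kifc and a digit, with Klc or Dctn and a digit, with Dync1 or Dync2, or with Dynl were taken, which gave 69 of the 46320 genes in the count table. By the known roles of their products they were sorted into 17 transport kinesins, 4 kinesin light chains, 14 mitotic kinesins, 12 other kinesins, 5 chains of cytoplasmic dynein 1, 2 chains of the ciliary dynein 2, 9 dynein light chains and 6 dynactin subunits. The expression filter left 65 of them among 19964 genes tested. *Kif2b* had no read in any of the 16 libraries, *Kif12* and *Kif19b* had at most 4 counts in a library, and *Kif28* had at most 13.

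The study asked how loss of hnRNP R, an RNA-binding protein, changes axons of motoneurons. Motoneurons were enriched from lumbar spinal cords of embryonic day 13 mice by panning with a p75NTR antibody and grown in microfluidic chambers, where axons grow into a side compartment. The 4 groups were WT soma and WT axon from Hnrnpr +/+ mice, and KO soma and KO axon from Hnrnpr-/- mice, in which CRISPR/Cas9 had deleted exons 1 to 5 of *Hnrnpr*, with 4 libraries each. All cultures received CNTF on both sides and BDNF on the axonal side only, the mice were on a C57Bl/6 background, and the axonal cDNA was amplified with more PCR cycles than the somatodendritic cDNA, so cycle number and compartment cannot be told apart.

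Kinesins are motors that mostly walk toward the growing, plus end of microtubules and in axons carry vesicles, organelles and RNA granules from the cell body outward. Cytoplasmic dynein 1, with its activator dynactin, moves cargo in the opposite direction and returns signalling endosomes to the cell body. Another set of kinesins builds the spindle and separates chromosomes in dividing cells, a state that motoneurons have left for good.

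Total counts per library ranged from 22024923 to 34864151. *Hnrnpr* had 3922 to 15608 counts in the +/+ libraries and 13 to 38 counts in the Hnrnpr-/- libraries. Levels are given as CPM, that is counts scaled to library size with TMM factors, or as CPM per kilobase (kb) of exons where genes are compared with each other. Differences are given as log2 fold changes (log2FC) with their standard errors (SE). Neuronal transcripts were present in both compartments, with a summed level of 5 pan-neuronal markers of 3949 to 6413 CPM in somatodendritic and 260 to 3485 CPM in axonal libraries. The motoneuron markers were low throughout, with a sum of 13.05 to 29.7 CPM over 6 genes in somatodendritic and 2.61 to 16.4 CPM in axonal libraries. *Mnx1* was at 0 in 15 of the 16 libraries and *Chat* in 5 of the 8 axonal libraries. The 8 markers of astrocytes or radial glia summed to 928 to 1397 CPM in somatodendritic and 2093 to 4663 CPM in axonal libraries. The axonal libraries stood further apart from each other than the somatodendritic ones, with a common dispersion of 0.302 against 0.0535. One somatodendritic library, Hnrnpr-/- replicate 1, stood apart from the other 3 of its group in several motor genes that are named below.

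Transcripts of transport and mitotic motors differed in opposite directions between the somatodendritic and axonal libraries of +/+ cultures. Words such as higher in axons stand for the axonal libraries, which also held transcripts of glial markers. Transcripts of 10 of 17 transport kinesins were lower in axons and 2 were higher, whereas 11 of 13 mitotic kinesins tested were higher and 0 were lower. All 5 dynein 1 chains were lower. Among the dynein light chains 5 of 9 were higher and 1 was lower, and dynactin was split, with 2 of 6 subunits higher and 2 lower. Over all motor genes tested, 23 of 65 were higher and 23 were lower in axons at an adjusted p under 0.05 in edgeR's quasi-likelihood test with Benjamini-Hochberg adjustment. That is 35.4% in each direction, beside 30.1% higher and 27.4% lower among all 19964 genes tested. The 2 groups of +/+ libraries did not overlap in 52.4% of all genes tested, so separation of a single gene was common. The median log2FC was -0.08 over the 65 motor genes and 0.07 over all genes tested, and the former turned positive, at 0.06, when library totals were used for scaling. In bulk RNA, fewer cells of a type and less RNA per cell cannot be told apart.

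**Figure D1:**
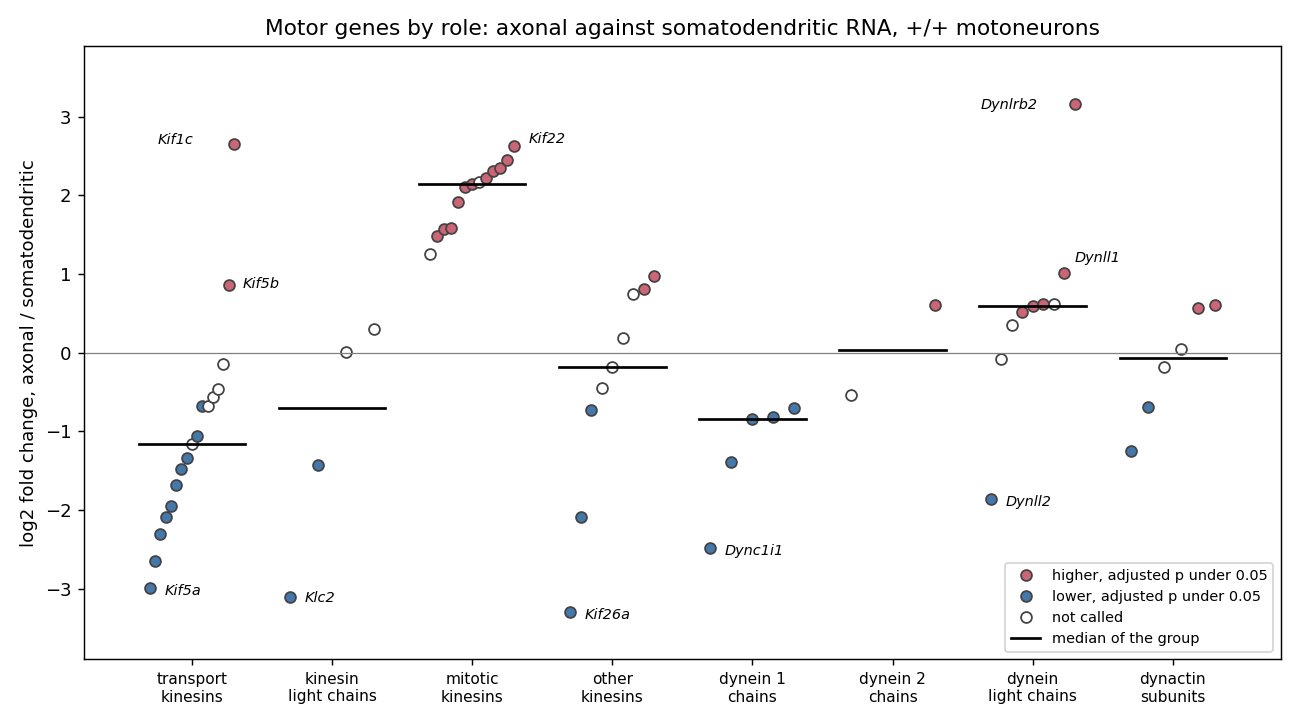
Log2 fold change of axonal over somatodendritic RNA in +/+ motoneurons (vertical axis) for the 65 motor genes tested, by role group (horizontal axis). Each point is a gene, filled where the adjusted p was under 0.05, and the bar is the median of the group. The mitotic kinesins lie between 1.25 and 2.62, and most transport kinesins lie below 0, with *Kif1c* and *Kif5b* above it.

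The conventional kinesin heavy chains *Kif5a*, *Kif5b* and *Kif5c* power fast axonal transport of vesicles and mitochondria. *Kif5a*, the neuron-specific form (Gene ID 16572, chromosome 10, 127061564 to 127102217 in GRCm39), had 1041, 1099, 908 and 958 CPM in the +/+ somatodendritic libraries and 144, 150, 26.8 and 181 CPM in the +/+ axonal libraries. Every axonal library was far below every somatodendritic one, and replicate 3 was the lowest. The log2FC was -2.99 (SE 0.72, adjusted p = 0.00289, edgeR quasi-likelihood test), the largest decrease among the transport kinesins. *Kif5c*, a second neuronal form on chromosome 2 (49509298 to 49664790), had 985, 1050, 919 and 902 CPM in somatodendritic and 246, 712, 129 and 298 CPM in axonal libraries, with a log2FC of -1.48 (SE 0.54, adjusted p = 0.0284). The axonal libraries were again all lower, with replicate 2 closest to the somatodendritic range. Its call was lost when somatodendritic replicate 1 or 2 or axonal replicate 1, 3 or 4 was left out, with values of -1.16 to -2.11 over all settings. *Kif5b*, the form found in most cell types, went the other way. It had 109, 114, 127 and 112 CPM in somatodendritic and 155, 246, 217 and 222 CPM in axonal libraries. The groups did not overlap, and the log2FC was 0.86 (SE 0.16, adjusted p = 0.00043).

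The balance among the 3 genes therefore differed between the compartments. Per kb of exons, *Kif5a* made up 41.2% to 43.5% of the Kif5 total in +/+ somatodendritic libraries, and 21.9%, 11.1%, 5.51% and 21.3% in the +/+ axonal libraries. *Kif5b* made up 6.21% to 8.02% in the former and 32.7%, 25.1%, 62.0% and 36.1% in the latter. *Kif5b* thus held the smallest share in each somatodendritic library and the largest share in axonal replicate 3, where *Kif5a* was lowest. That library also had the lowest pan-neuronal sum of the +/+ axonal libraries, 410 CPM against 1432, 2043 and 1542 CPM, and the part of this in the result was not tested.

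**Figure D2:**
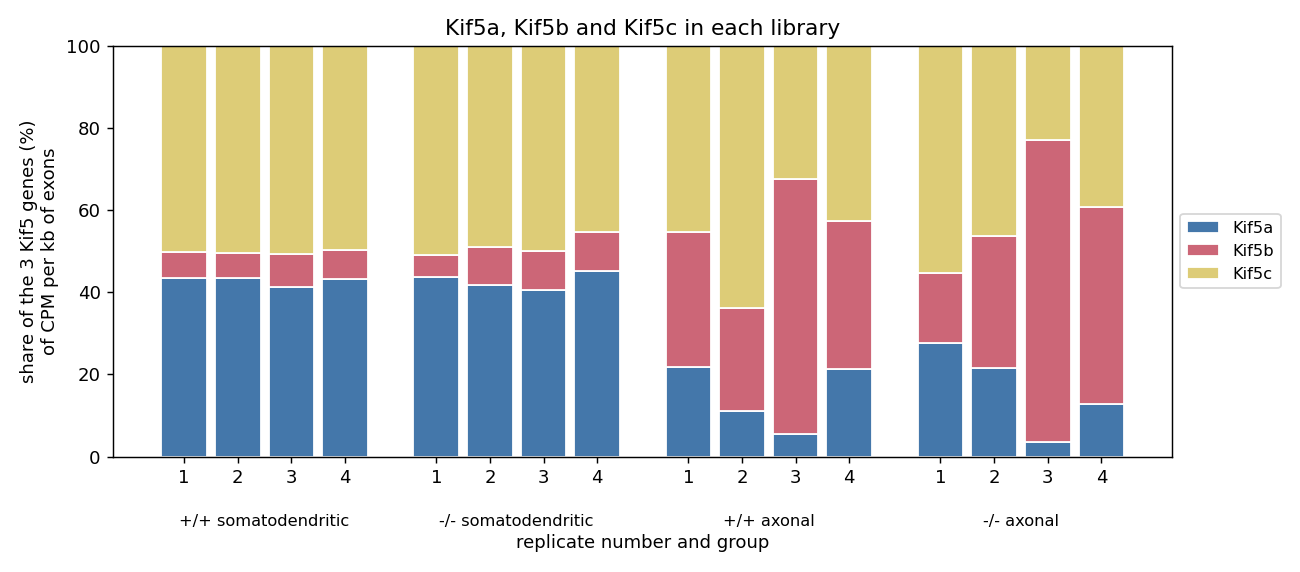
Share of *Kif5a*, *Kif5b* and *Kif5c* in their total CPM per kb of exons (vertical axis, percent) in each of the 16 libraries (horizontal axis, replicate number and group). *Kif5a* takes 40.5% to 45.1% in every somatodendritic library and 3.45% to 27.7% in the axonal ones, where *Kif5b* takes 17.1% to 73.7%.

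The kinesin-3 family carries synaptic vesicle precursors and dense-core vesicles. *Kif1a*, its main neuronal member (chromosome 1, 92943177 to 93029760), had 1490, 1554, 1204 and 1206 CPM in the +/+ somatodendritic and 636, 1559, 421 and 789 CPM in the +/+ axonal libraries. Axonal replicate 2 lay just above the highest somatodendritic library and the other 3 lay below all of them. The log2FC was -0.68 (SE 0.44, adjusted p = 0.201), and without axonal replicate 2 it was -1.15 with an adjusted p of 0.0351. With libraries of equal number blocked as a culture, it was called at -0.84 (edgeR adjusted p = 0.036). *Kif1b* was lower in axons, at 546 to 749 CPM against 155 to 295 CPM, with a log2FC of -1.68 (SE 0.34). *Kif1c*, the more widely expressed member (chromosome 11, 70591170 to 70622796), had the largest increase of all transport kinesins. Its levels were low, at 2.35, 2.16, 1.99 and 1.27 CPM in somatodendritic and 8.04, 10.95, 20.1 and 9.79 CPM in axonal libraries, without overlap. The log2FC was 2.65 (SE 0.37, adjusted p = 7.71e-05).

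The kinesin-2 subunits *Kif3a*, *Kif3b* and *Kif3c*, which pair with each other to carry vesicles, were all lower in axons. *Kif3c* had 379, 396, 368 and 323 CPM in somatodendritic and 90.3, 72.9, 32.6 and 101 CPM in axonal libraries, a log2FC of -2.30 (SE 0.42, adjusted p = 0.000444). *Kif3a* and *Kif3b* had log2FCs of -1.34 (SE 0.27) and -2.09 (SE 0.26). *Kif21b*, a neuronal kinesin-4 motor that also restrains microtubule growth, had 232, 274, 212 and 189 CPM in somatodendritic and 32.8, 58.3, 15.1 and 37.8 CPM in axonal libraries, at -2.65 (SE 0.53, adjusted p = 0.000812). Its relative *Kif21a* was at -1.07 and *Kifc2*, a minus-end directed motor of neurons, at -1.95. *Kif13b* passed the threshold at -0.68 (adjusted p = 0.031), but in 10 of 27 alternative settings it did not, among them those without somatodendritic replicate 1, 2 or 3 or axonal replicate 1, 3 or 4. The other 4 transport kinesins beside *Kif1a* that were not called were *Kif13a*, *Kif16b*, *Kif17* and *Kifc3*, at -0.46, -0.57, -1.16 and -0.14. Without axonal replicate 4, *Kif16b* (-0.92, adjusted p = 0.0472) and *Kif17* (-1.59, adjusted p = 0.0452) were called. With each culture as a block, *Kif17* was called as well (-1.45, edgeR adjusted p = 0.0368). For *Kif3c*, *Kif21b* and *Kif5a* the +/+ axonal replicate 3 was the lowest of its group each time.

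The kinesin light chains link conventional kinesin to cargo. *Klc1*, the neuron-enriched form (chromosome 12, 111724869 to 111774278), had 919, 1015, 982 and 909 CPM in somatodendritic and 419, 374, 235 and 395 CPM in axonal libraries, and its log2FC was -1.42 (SE 0.30, adjusted p = 0.00112). *Klc2* (chromosome 19, 5157774 to 5168326) fell more steeply, from 61.6, 71.8, 65.9 and 61.6 CPM to 7.80, 8.68, 5.46 and 8.35 CPM, with a log2FC of -3.11 (SE 0.32, adjusted p = 2.1e-05). Neither pair of groups overlapped. *Klc3* and *Klc4* were at 0.31 and 0.01 and were not called, with *Klc4* at 37.1 to 48.5 CPM in somatodendritic and 27.6 to 52.6 CPM in axonal libraries.

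The mitotic kinesins had a median log2FC of 2.14 between the +/+ compartments. *Kif22*, a chromokinesin that pushes chromosomes toward the spindle equator (Gene ID 110033, chromosome 7, 126626901 to 126641639), had 17.1, 11.4, 18.6 and 14.5 CPM in somatodendritic and 116, 77.8, 162 and 23.6 CPM in axonal libraries. All 4 axonal libraries were higher, and replicate 4 was close to the somatodendritic range. The log2FC was 2.62 (SE 0.62, adjusted p = 0.0025). *Kif23*, needed for the last step of cell division (chromosome 9, 61824559 to 61854087), had 8.03, 5.18, 9.07 and 6.38 CPM in somatodendritic and 37.5, 30.9, 64.2 and 14.1 CPM in axonal libraries, at 2.35 (SE 0.58, adjusted p = 0.00331). *Kif2c*, which takes apart microtubules at centromeres, had 12.1, 6.21, 14.5 and 9.76 CPM against 74.5, 62.3, 80.6 and 14.7 CPM, at 2.45 (SE 0.63, adjusted p = 0.00428). The same library, axonal replicate 4, was the lowest in all 3 genes.

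*Kifc1*, a minus-end motor that focuses spindle poles, had 5.79, 3.33, 4.02 and 5.35 CPM in somatodendritic and 21.8, 13.3, 42.6 and 4.04 CPM in axonal libraries. Axonal replicate 4 fell inside the somatodendritic range, and the log2FC was 2.14 (SE 0.59, adjusted p = 0.00651). Its near-identical copy *Kifc5b* was at 1.48 (adjusted p = 0.0132), and fractional counting may divide reads between the pair, so neither value is certain. The call of *Kifc5b* was lost without +/+ axonal replicate 3 and with each culture as a block (1.19, edgeR adjusted p = 0.0563). *Kif4*, *Kif15*, *Kif18a*, *Kif18b*, *Kif20a* and *Kif20b* were higher as well, by 1.57 to 2.31 on the log2 scale. *Kif11*, the main motor of spindle bipolarity, and *Kif14*, which acts in cytokinesis, were at 1.25 and 2.17 with adjusted p values of 0.0504 and 0.0516 and so were not called. *Kif11* was called in 11 and *Kif14* in 10 of 27 alternative settings, *Kif11* for example without +/+ axonal replicate 4 (1.56, adjusted p = 0.0191) and both genes without Hnrnpr-/- axonal replicate 1 or 3. With each culture as a block, *Kif14* was called at 2.22 (edgeR adjusted p = 0.0325), and *Kif11* was not, at 1.15 (adjusted p = 0.0905). Summed per kb of exons, mitotic kinesins came to 35.2, 23.4, 37.95 and 30.04 CPM per kb in +/+ somatodendritic libraries and to 165, 130, 214 and 45.1 CPM per kb in +/+ axonal libraries. In 7 of the 13 genes the groups did not overlap and the axonal libraries were higher, and separation in either direction was seen in 52.4% of all genes tested.

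**Figure D3:**
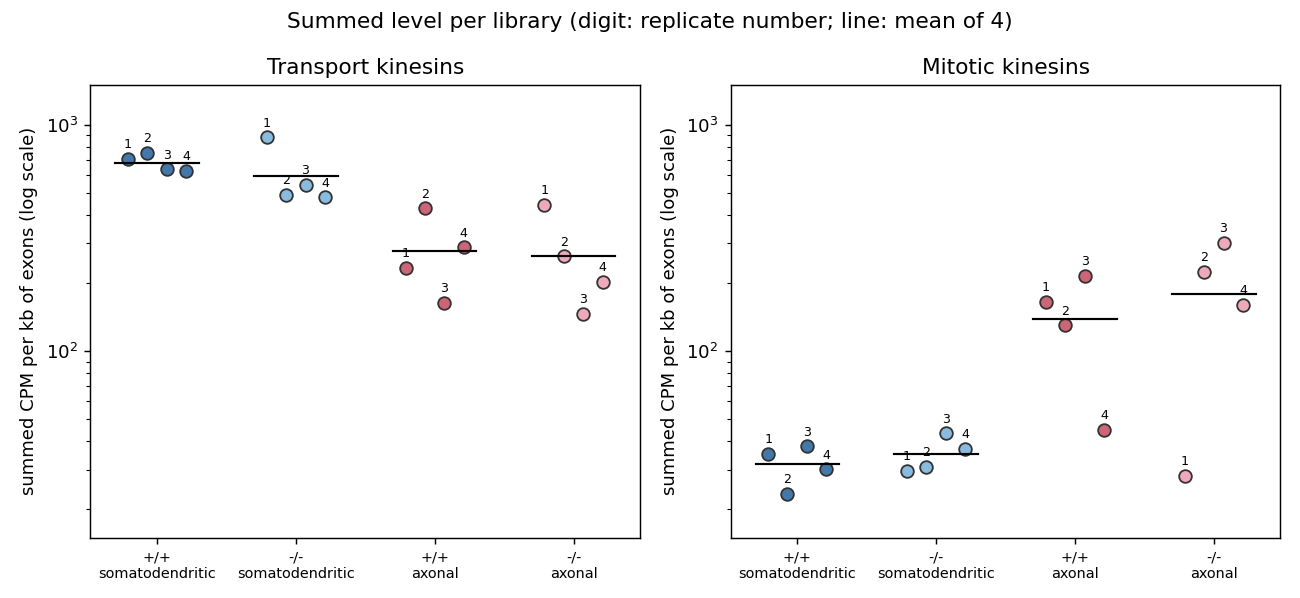
Summed CPM per kb of exons (vertical axis, log scale) of the 17 transport and the 14 mitotic kinesins in each library, by group (horizontal axis). Digits are replicate numbers and bars are means of 4 libraries. Transport sums are 478 to 879 in somatodendritic and 146 to 442 in axonal libraries. Mitotic sums are 23.4 to 43.3 in somatodendritic and 28.1 to 300 in axonal libraries, with +/+ replicate 4 and Hnrnpr-/- replicate 1 the lowest of the latter.

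A list of 15 proliferation genes that are not motors, among them *Mki67*, *Top2a*, *Cdk1* and *Birc5*, was set beside the mitotic kinesins. All 15 were higher in +/+ axonal libraries, with a median log2FC of 2.41. Their summed level was 199 to 389 CPM in the somatodendritic libraries of both genotypes. It was 1696, 1491, 2272 and 507 CPM in the +/+ axonal libraries and 232, 2256, 2954 and 1631 CPM in the Hnrnpr-/- axonal libraries. Ordered by this sum, 6 of the 8 axonal libraries held the same rank as by the mitotic kinesin sum, and the other 2 traded places. Among the markers, 6 of 8 genes of astrocytes or radial glia were higher in +/+ axons and 0 were lower, with a median of 1.11. Of 6 fibroblast or meningeal markers 1 was higher, of 5 tested markers of oligodendroglia or Schwann cells 1 was higher, and 0 of 5 microglial markers were called. The part of non-neuronal or dividing cells in the mitotic kinesin result was not tested.

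The transport kinesin sum followed the neuronal markers in the same way. It was 705, 754, 635 and 625 CPM per kb in the +/+ somatodendritic libraries and 233, 427, 164 and 287 CPM per kb in the +/+ axonal libraries. All 5 pan-neuronal markers were lower in +/+ axonal libraries, with a median log2FC of -1.99. Ordered by the pan-neuronal sum, 6 of the 8 axonal libraries held the same rank as by the transport kinesin sum, and again the other 2 traded places. The highest in both was Hnrnpr-/- replicate 1, with 442 CPM per kb and 3485 CPM, and the lowest in both was Hnrnpr-/- replicate 3, with 146 CPM per kb and 260 CPM. How much of the lower transport kinesin level goes with the neuronal share of the RNA was not tested.

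Promoter sequences of the mitotic and transport kinesins are described next. Genes of the late cell cycle often carry a cell cycle homology region, for which TTTGAA is the best known sequence, together with CCAAT boxes upstream of it. RefSeq promoter sequences of 250 bases before to 50 bases after the start were held for 52 of the 69 motor genes, in the build GRCm38.p6, which is older than the GRCm39 build of the counts. TTTGAA or its reverse complement TTCAAA was found in 11 of 13 mitotic kinesin promoters (84.6%) and in 1 of 11 transport kinesin promoters (9.09%), that of *Kif1a*. These 13 are not the 13 mitotic kinesins tested. They hold *Kif2b*, which had no read and carried CCAAT but not TTTGAA, and they lack *Kif20a*. Among all 27025 genes with a promoter in the table, 20.2% held it, and among all 32851 promoters 17.9%. CCAAT or its reverse complement ATTGG was found in 9 of 13 mitotic (69.2%) and 3 of 11 transport kinesin promoters (27.3%), against 41.1% of all genes and 37.4% of all promoters. Both stood in 8 of the mitotic and 0 of the transport kinesin promoters, and in no motor gene promoter did they overlap. For 5 called mitotic kinesins, the 80 bases before to 30 bases after the start lie at chr9:122951001-122951110 on the plus strand for *Kif15*, chr11:102925095-102925204 on the minus strand for *Kif18b*, chr7:127042391-127042500 on the minus strand for *Kif22*, chr9:61946770-61946879 on the minus strand for *Kif23* and chr17:33890604-33890713 on the minus strand for *Kifc1*. For the transport kinesins *Kif5c* and *Kif3c*, which were lower in axons, and *Kif1c*, which was higher, they lie at chr2:49619206-49619315 on the plus strand for *Kif5c*, chr12:3365052-3365161 on the plus strand for *Kif3c* and chr11:70700468-70700577 on the plus strand for *Kif1c*. They read 5′ to 3′ on the strand of the gene, with either motif in capitals.
Kif15: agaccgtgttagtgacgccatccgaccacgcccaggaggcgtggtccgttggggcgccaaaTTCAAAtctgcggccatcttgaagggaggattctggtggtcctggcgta
Kif18b: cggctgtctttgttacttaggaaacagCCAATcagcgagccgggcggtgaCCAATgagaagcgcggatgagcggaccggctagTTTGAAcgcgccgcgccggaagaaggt
Kif22: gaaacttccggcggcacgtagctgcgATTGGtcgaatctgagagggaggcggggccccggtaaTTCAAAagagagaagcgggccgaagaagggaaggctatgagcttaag
Kif23: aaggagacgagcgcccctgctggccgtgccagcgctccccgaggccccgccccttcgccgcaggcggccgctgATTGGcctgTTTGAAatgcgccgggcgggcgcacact
Kifc1: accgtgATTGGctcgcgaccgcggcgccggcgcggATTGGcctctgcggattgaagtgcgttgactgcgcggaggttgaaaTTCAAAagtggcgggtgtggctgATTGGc
Kif5c: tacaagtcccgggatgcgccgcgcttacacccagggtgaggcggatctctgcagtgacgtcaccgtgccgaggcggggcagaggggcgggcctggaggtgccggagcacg
Kif3c: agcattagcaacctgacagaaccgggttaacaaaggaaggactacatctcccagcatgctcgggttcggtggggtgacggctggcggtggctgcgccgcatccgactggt
Kif1c: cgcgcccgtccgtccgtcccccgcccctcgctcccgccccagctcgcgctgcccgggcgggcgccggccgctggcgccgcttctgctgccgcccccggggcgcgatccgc

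The mitotic windows were picked to show TTTGAA or TTCAAA, and the transport windows for how the genes moved, so they are examples and not a comparison. Over all promoters of each role group, the same window held TTTGAA in 8 of 13 mitotic and 1 of 11 transport kinesins, and CCAAT in 8 of 13 and 2 of 11. The mitotic promoters with CCAAT include that of *Kif2b*, which had no read. Among the called mitotic kinesins, *Kif18a* had no TTTGAA in its promoter and *Kif2c* had it only further upstream, whereas *Kif1a* held TTTGAA and *Kif3a* and *Kif3b* held CCAAT inside the window. These matches describe letters in a window and are not shown to be bound, and their part in the difference between compartments was not tested.

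Other kinesins, which serve cilia, microtubule turnover or signalling, had no common direction, with 2 of 9 tested higher and 3 lower in +/+ axons. *Kif26a*, a motor-dead kinesin of growth factor signalling (chromosome 12, 112109378 to 112148181), had the largest decrease of all motor genes, from 26.9, 23.6, 19.8 and 13.3 CPM to 1.77, 3.33, 1.82 and 1.59 CPM, with a log2FC of -3.29 (SE 0.41, adjusted p = 4.08e-05). *Kif26b* was at -2.09 (SE 0.42). *Kif2a*, which trims microtubules and limits collateral branching of axons, was just past the threshold at -0.73 (adjusted p = 0.0449) and lost its call in 21 of 27 alternative settings. Its axonal levels were 17.7, 45.6, 17.0 and 19.7 CPM, with replicate 2 inside the somatodendritic range of 33.9 to 46.7 CPM, and without that library the log2FC was -1.20 (adjusted p = 0.00055). *Kif7*, a regulator of hedgehog signalling in cilia, and *Kif6* were higher, at 0.98 (adjusted p = 0.0134) and 0.81 (adjusted p = 0.0196). Both were low, at 4.41 to 6.25 CPM and 2.21 to 2.75 CPM in somatodendritic libraries. *Kif6* lost its call without axonal replicate 4 and with each culture as a block (0.76, edgeR adjusted p = 0.056).

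The 5 chains of cytoplasmic dynein 1 are the ATP-driven heavy chain *Dync1h1*, the intermediate chains *Dync1i1* and *Dync1i2*, and the light intermediate chains *Dync1li1* and *Dync1li2*, which bind cargo adaptors. *Dync1i1*, the neuron-enriched intermediate chain (chromosome 6, 5725593 to 6028039), had 114, 141, 134 and 120 CPM in +/+ somatodendritic and 22.1, 35.7, 6.53 and 26.8 CPM in +/+ axonal libraries. Its log2FC was -2.48 (SE 0.66, adjusted p = 0.00515), and axonal replicate 3 was the lowest here too. *Dync1i2*, the widely expressed intermediate chain, had 103, 120, 110 and 126 CPM against 42.2, 42.8, 36.5 and 53.4 CPM, at -1.39 (SE 0.15, adjusted p = 2.1e-05). The heavy chain (chromosome 12, 110567829 to 110633378) had 333, 397, 289 and 289 CPM against 154, 179, 187 and 212 CPM, at -0.84 (SE 0.26, adjusted p = 0.012). This call was lost without somatodendritic replicate 2, the highest library. *Dync1li1* and *Dync1li2* were at -0.70 and -0.81. In all 5 genes the 2 groups did not overlap, as in 52.4% of all genes tested.

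The small light chains help assemble dynein and also bind many other proteins. *Dynll1* (chromosome 5, 115435169 to 115439049) had 172, 145, 176 and 190 CPM in +/+ somatodendritic and 311, 274, 494 and 298 CPM in +/+ axonal libraries, a log2FC of 1.01 (SE 0.20, adjusted p = 0.000714). Its close relative *Dynll2* (chromosome 11, 87870351 to 87892746) had 147, 133, 121 and 133 CPM against 29.8, 38.4, 43.3 and 35.5 CPM, a log2FC of -1.86 (SE 0.16, adjusted p = 7.08e-06). The groups did not overlap for either gene. Per kb of exons, *Dynll1* exceeded *Dynll2* by 1.68, 1.57, 2.10 and 2.05 times in the somatodendritic libraries and by 15.03, 10.3, 16.4 and 12.1 times in the axonal libraries. Of the roadblock light chains, *Dynlrb1* rose from 130, 99.8, 106 and 155 CPM to 165, 198, 209 and 178 CPM, at 0.61 (SE 0.17, adjusted p = 0.00672). Its relative *Dynlrb2* was at 0.66, 0.05, 0.21 and 0.09 CPM in somatodendritic and 1.84, 1.89, 1.72 and 4.16 CPM in axonal libraries, at 3.16 (SE 0.63, adjusted p = 0.000777).

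The Tctex light chains *Dynlt1a*, *Dynlt1b*, *Dynlt1c* and *Dynlt1f* are near-identical copies that held fractional counts in all 16 libraries, so their single values are uncertain. Their log2FCs in +/+ motoneurons were -0.08, 0.35, 0.52 and 0.59, and those of *Dynlt1c* (adjusted p = 0.0314) and *Dynlt1f* (adjusted p = 0.0136) passed the threshold. The call of *Dynlt1c* was lost without +/+ somatodendritic replicate 1, 2 or 3 or axonal replicate 2, and +/+ somatodendritic replicate 4 was the highest of its group for *Dynlt1b*, at 102 CPM against 48.6 to 61.3 CPM. Without it, *Dynlt1b* was at 0.68 (adjusted p = 0.00611) and *Dynlt1c* at 0.81 (adjusted p = 0.00113). *Dynlt3* was at 0.62 (adjusted p = 0.0819), and at 0.87 (adjusted p = 0.0162) without axonal replicate 3. Of the ciliary dynein 2 chains, *Dync2li1* was higher at 0.60 (adjusted p = 0.0122), with 14.6 to 24.1 CPM in somatodendritic and 23.4 to 36.0 CPM in axonal libraries, and the heavy chain *Dync2h1* was at -0.53 (adjusted p = 0.103).

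Dynactin switches dynein on and ties it to cargo. *Dctn1*, the long shoulder subunit p150 that grips microtubules and is mutated in a motoneuron disease (chromosome 6, 83142702 to 83177100), had 504, 558, 458 and 371 CPM in +/+ somatodendritic and 223, 168, 140 and 267 CPM in +/+ axonal libraries. The groups did not overlap, and the log2FC was -1.25 (SE 0.24, adjusted p = 0.000633). *Dctn4*, a subunit of the pointed end, was at -0.69 (SE 0.17). The small subunits *Dctn3* and *Dctn6* were higher, at 0.57 (SE 0.15, adjusted p = 0.0045) and 0.61 (SE 0.16, adjusted p = 0.00595). *Dctn2*, the dynamitin subunit, had 317 to 389 CPM against 281 to 333 CPM and was not called at -0.18, as was *Dctn5* at 0.05. Of 6 genes of the dynactin filament that carry other names, *Capzb* and *Capza2* were higher, *Actr1a* was lower and 3 were not called. Of 20 adaptors and regulators of motors, 13 were lower and 2 were higher, with a median of -0.93. Among the lower ones were *Kifap3*, the cargo subunit of kinesin-2, at -1.98, *Mapk8ip1* at -2.49 and *Pafah1b1*, the dynein regulator Lis1, at -1.46. The 2 higher ones, *Nde1* at 2.56 and *Spdl1* at 2.29, act with dynein in mitosis.

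Ordered by level per kb of exons, *Kif1a*, *Klc1*, *Dctn2* and *Kif5c* led the +/+ somatodendritic libraries, at 156 ± 21.1, 143 ± 7.57, 142 ± 12.04 and 140 ± 9.84 CPM per kb (SD, n = 4), which are not separated beyond their spread. *Dynlrb1* and *Kif5a* followed at 122 ± 25.0 and 120 ± 10.2 CPM per kb. In +/+ axonal libraries the first were light chains, with *Dynlrb1* at 186 ± 19.7 and *Dynll1* at 170 ± 49.9 CPM per kb, then *Dctn2* at 125 ± 9.60, *Dynlt1b* at 110 ± 6.05 and *Kif1a* at 97.1 ± 56.5 CPM per kb. *Kif5a* was number 6 of the order in somatodendritic and number 23 in axonal libraries. *Kif22* went from number 36 to number 13, where its 43.1 ± 26.7 CPM per kb lay above the 15.03 ± 8.12 CPM per kb of *Kif5a* on average and in 3 of the 4 libraries.

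In Hnrnpr-/- motoneurons the same comparison gave 23 motor genes higher and 24 lower in axons, which is 35.4% and 36.9%, beside 27.5% higher and 26.8% lower among all genes tested. Transport kinesins had 2 higher and 10 lower of 17 (median -1.28), mitotic kinesins 12 higher and 0 lower of 13 (median 2.10), dynein 1 chains 5 lower of 5, dynein light chains 6 higher and 1 lower of 9, and dynactin 2 higher and 2 lower of 6. Both kinesin light chains *Klc1* and *Klc2* were lower, 4 of 9 other kinesins were lower and 0 were higher. The 2 comparisons share no library. Of the genes called in either, 43 were called in both, always in the same direction, which is 93.5% of those called in +/+ and 91.5% of those called in Hnrnpr-/- motoneurons. Over all genes tested, the calls shared by both genotypes were 83.7% and 88.8%. Only in +/+ the threshold was passed by *Kif6*, *Kif7* and *Kif13b*, and only in Hnrnpr-/- motoneurons by *Kif9*, *Kif11*, *Kif17* and *Dynlt1b*, while the test of the difference called 0 of them. With each culture as a block, *Kif11* was at 1.02 with an adjusted p of 0.16 in Hnrnpr-/- motoneurons and was no longer called, which left 11 mitotic kinesins. This call was also lost without any 1 of the 4 somatodendritic libraries or of axonal replicates 2, 3 and 4, and that of *Kif17* (-1.66, adjusted p = 0.03) without somatodendritic replicate 1, 2 or 4 or axonal replicate 3 or 4. *Kif14* was called only when axonal replicate 1 was left out (2.34, adjusted p = 0.00125) or with DESeq2 by default, and *Kif13b* when somatodendritic replicate 2 was left out (-0.66, adjusted p = 0.0459). *Dctn5*, at 0.25 (adjusted p = 0.0644), was called in 13 of 27 alternative settings, which would make 3 dynactin subunits higher. It had 77.5, 89.0, 83.0 and 84.9 CPM in somatodendritic and 103, 95.2, 97.5 and 102 CPM in axonal libraries, without overlap. Pearson's r across the 65 genes, which are not independent replicates, was 0.981 between the 2 sets of fold changes, and over all genes tested it was 0.917.

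**Figure D4:**
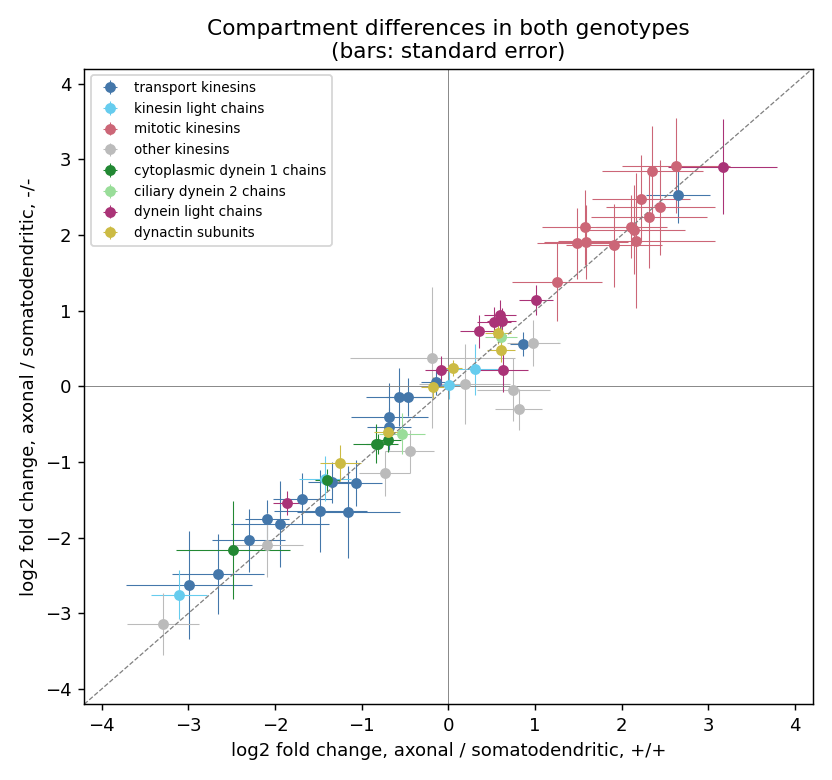
Log2 fold change of axonal over somatodendritic RNA in +/+ (horizontal axis) and Hnrnpr-/- motoneurons (vertical axis) for the 65 motor genes tested, colored by role group, with bars for the standard error and a dashed line of equality. Mitotic kinesins lie at the upper right and most transport kinesins at the lower left, near the line, and the largest difference between the 2 values of a gene is 1.11, for *Kif6*.

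Single genes are given for Hnrnpr-/- motoneurons as well. *Kif5a* had 1291, 724, 787 and 720 CPM in somatodendritic and 342, 153, 14.1 and 60.0 CPM in axonal libraries, at -2.63 (SE 0.71, adjusted p = 0.00642). The axonal libraries were all lower, yet they ranged over more than an order of magnitude. *Kif5b* had 115, 114, 134 and 111 CPM against 152, 165, 217 and 164 CPM, at 0.56 (SE 0.16, adjusted p = 0.00762). *Kif22* had 12.5, 14.4, 20.7 and 17.1 CPM against 15.3, 147, 213 and 111 CPM, at 2.91 (SE 0.63, adjusted p = 0.00154). Axonal replicate 1 stayed inside the somatodendritic range while the other 3 were several times higher. In that library *Kif14* had no read, which allows up to 3 counts, and *Kif11* was at 6.60 CPM against 48.4 to 81.6 CPM in the others. For the mitotic kinesins 2 of 13 were separated between the Hnrnpr-/- compartments, against 51.4% of all genes tested.

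Dixon's test was run only on the motor genes named by rule and on the role sums. In 6 of these genes Hnrnpr-/- somatodendritic replicate 1 stood far above the other 3 of its group, and 3 are given here. *Kif1a* was at 1855 CPM there against 719 to 895 CPM, *Dync1h1* at 457 CPM against 184 to 217 CPM, and *Kif21b* at 320 CPM against 112 to 147 CPM. *Dync1h1* was lower in Hnrnpr-/- axons at -0.76 (adjusted p = 0.0215), a call that was lost without this library, at -0.31 (adjusted p = 0.171), or without axonal replicate 3 or 4. *Kif1b* and *Kif3b*, which were not checked by Dixon's test, were at 990 against 306 to 380 CPM and 165 against 115 to 120 CPM. *Kif1b* kept its call without somatodendritic replicate 1, but moved from -1.48 to -0.88 (adjusted p = 0.00857). The call of *Kif9*, a kinesin of motile cilia, at -0.86 (adjusted p = 0.02), was lost when somatodendritic replicate 1 or 3 or axonal replicate 2 or 3 was left out, that of *Dctn6*, at 0.49, without axonal replicate 4, and that of *Kif5c*, at -1.65, without somatodendritic replicate 1 or axonal replicate 4. *Kif7*, at 0.58 (adjusted p = 0.12), was at 0.78 with an adjusted p of 0.0297 without axonal replicate 1.

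Loss of hnRNP R went with no motor gene past the threshold. In axons 0 of 65 were called at an adjusted p under 0.05 in edgeR's quasi-likelihood test, where 0.01% of all genes were called, and 1 had an unadjusted p under 0.05, where 3.88% of all genes did. In the somatodendritic compartment 0 were called, against 0.00501% of all genes, and 1 had an unadjusted p under 0.05, against 0.601%. The fit shared its estimate of the spread over both compartments, with a common dispersion of 0.178. That is above the 0.0535 of somatodendritic and below the 0.302 of axonal libraries. SEs and p values may thus be too large in the former and too small in the latter. A fit of the compared groups alone also called 0 in each compartment. The interaction of genotype and compartment also gave 0 calls, as for all genes (0%), and 1 with an unadjusted p under 0.05, against 1.33%. DESeq2 called 0 of them in each of the 3 comparisons as well. In no motor gene were the 4 Hnrnpr-/- libraries separated from the 4 +/+ libraries, either in axons, where 0.606% of all genes were, or in the somatodendritic compartment, where 1.58% were.

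In axons the median log2FC of Hnrnpr-/- over +/+ was -0.05 for transport kinesins, 0.30 for mitotic kinesins, 0.09 for dynein 1 chains and 0.04 for all 65 genes. The 15 proliferation genes had a median of 0.29 in the same comparison with 0 called. Of 8 markers of astrocytes or radial glia, 7 were negative (median -0.30), and 5 of 5 tested markers of oligodendroglia or Schwann cells were positive (median 0.60), with 0 called in either list. The 5 microglial markers, of which 0 were called, summed to 44.6, 14.6, 3.12 and 5.72 CPM in +/+ and 0.523, 21.9, 0.630 and 149 CPM in Hnrnpr-/- axonal libraries, where replicate 4 stood far above the rest. The transport kinesin sum was 278 ± 112 CPM per kb in +/+ and 263 ± 128 CPM per kb in Hnrnpr-/- axons (SD, n = 4), and the mitotic kinesin sum was 139 ± 71.4 and 178 ± 115 CPM per kb. In the somatodendritic compartment the medians were -0.10 for transport kinesins, 0.17 for mitotic kinesins, -0.08 for dynein 1 chains and -0.04 for all 65 genes. The transport kinesin sum there was 879 CPM per kb in Hnrnpr-/- replicate 1 and 478 to 541 CPM per kb in the others of its group. The former lay above and the latter below all +/+ somatodendritic libraries, at 625 to 754 CPM per kb, so the transport median mixes both. The dynein light chains had a median of -0.28 there, with 8 of 9 negative, but 4 of the 9 are *Dynlt1* copies that share reads. Their sum was 478, 392, 431 and 622 CPM per kb in +/+ and 342, 449, 409 and 375 CPM per kb in Hnrnpr-/- libraries, which overlap, with +/+ replicate 4 the highest. Values of markers of other cells were mostly positive in the same comparison, with 6 of 6 fibroblast or meningeal markers (median 1.14), 5 of 5 tested markers of oligodendroglia or Schwann cells (median 0.48), 7 of 8 of astrocytes or radial glia (median 0.17) and 4 of 5 microglial markers (median 0.90) positive and 0 called. The fibroblast or meningeal sum was 402, 60.5, 359 and 406 CPM in +/+ and 97.9, 135, 1107 and 1233 CPM in Hnrnpr-/- libraries, and the part of these cells in the motor gene values was not tested. In axons the mitotic median was 0.66 without Hnrnpr-/- axonal replicate 1, 0.63 without +/+ axonal replicate 3, 0.14 without Hnrnpr-/- axonal replicate 2, 0.04 without +/+ axonal replicate 4 and -0.05 without Hnrnpr-/- axonal replicate 3. The transport median turned positive without +/+ axonal replicate 2 or Hnrnpr-/- axonal replicate 3 or 4, at 0.10, 0.16 and 0.003.

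In axons *Kif9* had the smallest p, at -0.61 (SE 0.28, unadjusted p = 0.0496, edgeR quasi-likelihood test), with 4.67, 6.27, 2.697 and 5.69 CPM in +/+ and 3.66, 2.52, 2.49 and 4.01 CPM in Hnrnpr-/- libraries, which overlap. *Kif6* followed at -0.55 (unadjusted p = 0.0608), and *Kif5b* was next at -0.27 (SE 0.16, unadjusted p = 0.108). In the somatodendritic compartment *Dynlrb1* had -0.39 (SE 0.17, unadjusted p = 0.0384), with 130, 99.8, 106 and 155 CPM in +/+ and 80.9, 112, 96.9 and 85.4 CPM in Hnrnpr-/- libraries. *Kif6* and *Dynlt1f* came next at 0.56 and -0.37 (unadjusted p = 0.0566 and 0.068). In the interaction term *Kif6* was at -1.11 (SE 0.38, unadjusted p = 0.0111, adjusted p = 1). Its fold change between compartments was 0.81 in +/+ and -0.30 in Hnrnpr-/- motoneurons, on levels of at most 6.24 CPM. *Dynll2* and *Kif5b* followed in that term, at 0.32 and -0.30 (unadjusted p = 0.174 and 0.186).

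The list of cytoskeletal genes that the study used to annotate its protein data holds 4 of these motor genes. Their axonal log2FCs of Hnrnpr-/- over +/+ were -0.27 for *Kif5b*, 0.17 for *Kif3c* (SE 0.40), 0.10 for *Dync1li2* (SE 0.13) and -0.14 for *Dynlrb1* (SE 0.17). The SEs differed widely among the motor genes, from 0.11 for *Dctn5* to 0.67 for *Kif5a*, 0.84 for *Kif14* and 0.94 for *Kif19a*.

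**Figure D5:**
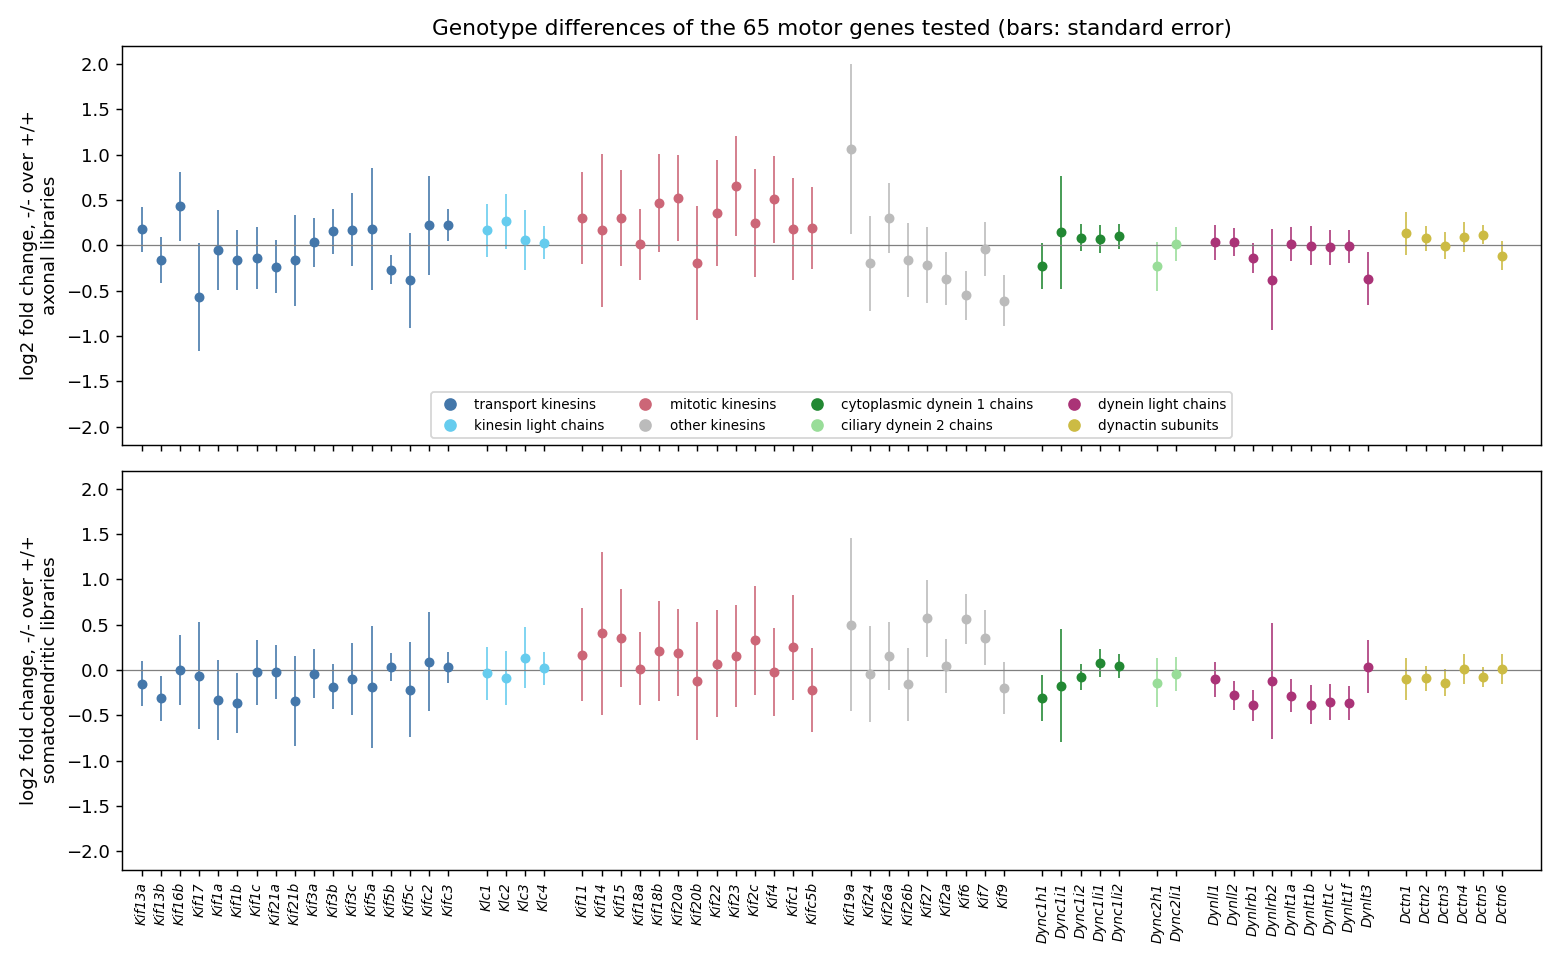
Log2 fold change of Hnrnpr-/- over +/+ (vertical axis, bars for the standard error) of each of the 65 motor genes tested (horizontal axis) in axonal libraries (upper panel) and somatodendritic libraries (lower panel), colored by role group. Values run from -0.61 to 1.06 in axons and from -0.39 to 0.57 in the somatodendritic compartment, and none passed an adjusted p of 0.05.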

How the data were processed

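RNA of 16 libraries was sequenced. Per the labels and the study's methods, the authors aligned reads with STAR 2.7.2b to GRCm39 and counted them on RefSeq exons with featureCounts 1.6.4, strand-specific in the reverse setting. The deposited values are expected counts, since a read with several alignments or overlapping genes was divided among them, and they were not normalized. Reads of near-identical copies can thus be split. Fractional counts were not limited to such copies: *Dctn1* held them in 16, *Kif5b* and *Dynll1* in 15 and *Kif2a* in 14 of the 16 libraries. What part of their counts was divided was not examined. No 2 libraries were identical. The study describes its RNA-seq replicates as biological.

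Counts were rounded to whole numbers. In edgeR 4.0.16 (R 4.3.3, limma 3.58.1), genes were filtered by expression per group, scaled by TMM factors and fitted with 1 mean per group over all 16 libraries. Quasi-likelihood F-tests were two-sided, with Benjamini-Hochberg adjustment over the 19964 genes tested and a threshold of 0.05, and the script was tested on simulated data. A gene without a read allows up to 3 counts, which covers counting error only, since PCR copies carried no molecular identifiers. Exon lengths for CPM per kb are those of the count table. Values given beside each other as CPM are scaled counts without a pseudocount.

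Groups came from the sample titles. Deviations from the group means were compared between libraries that share a number. Between the compartments of Hnrnpr-/- cultures the correlation was 0.178 to 0.564 for the 4 pairs, which were taken as paired. In +/+ cultures it was 0.0943 to 0.279, and each somatodendritic library resembled the axonal library of its own number most. They were not taken as paired in the main fit, because the correlation of replicate 4 was only 0.0943. The main +/+ fit may thus leave out a pairing, and calls that changed with a culture block are given beside the genes. Between genotypes the correlation was -0.0155 to 0.763, which did not establish pairing. Fits with a block were run as alternatives for all contrasts that allow them.

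Named with values were, in each role group, the member with the highest level per kb in each +/+ compartment and the 3 largest called increases and decreases between them, then the 3 smallest p values of each genotype contrast, the members on the study's cytoskeletal list, and near-identical copies. Other motor genes were named after their values were seen. The members, lists, motifs and tests were chosen with earlier results of these data known. Alternatives used library totals or RLE factors for scaling, no filter or a stricter one, DESeq2 1.42.0 by default or with betaPrior, a fit of the compared groups alone, a block for replicate number or culture, and all libraries but 1 in turn. Leaving out axonal replicates 3, or Hnrnpr-/- axonal replicate 1 with +/+ axonal replicate 4, was added after the data were seen.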

Additional observations from a re-analysis of the deposited data

Results flagged for a closer look

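Dixon's test was run on the motor genes named by the rule above and on the role sums, not on all motor genes. In 16 of 184 groups of 4 libraries, 1 library lay far from the other 3 by Dixon's test at the 95% level, and chance alone gives about 1 in 20, or 9.2. Of these, 7 were Hnrnpr-/- somatodendritic replicate 1, which was the highest each time. There *Kif5a* was at 1291 CPM against 720 to 787 CPM in the others, *Kif1a* at 1855 against 719 to 895 CPM and *Kif21b* at 320 against 112 to 147 CPM. *Dync1h1* was at 457 against 184 to 217 CPM, *Klc2* at 79.5 against 53.2 to 56.5 CPM and *Kif26b* at 131 against 69.1 to 73.3 CPM. The sum of the transport kinesins was 879 against 478 to 541 CPM per kb. In Hnrnpr-/- axonal replicate 1, *Dync1i2* was at 56.6 against 42.5 to 43.6 CPM, *Dctn2* at 415 against 299 to 316 CPM, and the dynactin sum at 399 against 307 to 312 CPM per kb.

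Among +/+ axonal libraries, replicate 2 was highest for *Kif2a* (45.6 against 17.0 to 19.7 CPM), *Kif26a* (3.33 against 1.59 to 1.82 CPM) and *Dynlt1a* (104 against 87.6 to 88.1 CPM). Replicate 3 was highest for *Dynll1* (494 against 274 to 311 CPM) and replicate 4 for *Dynlrb2* (4.16 against 1.72 to 1.89 CPM). The dynactin sum was lowest in +/+ somatodendritic replicate 4, at 327 against 350 to 354 CPM per kb.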

How the results depend on the processing

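No motor gene called between compartments changed its sign over 27 alternatives, and neither did the medians of the transport or mitotic kinesins. The median over all 65 genes, which lay near 0, did so in +/+ (-0.13 to 0.07) and in Hnrnpr-/- motoneurons (-0.02 to 0.14). Of the motor genes, 39 of the 46 called in +/+ and 41 of the 47 called in Hnrnpr-/- motoneurons were called in each. With single libraries left out, 22 to 25 were higher and 19 to 24 lower in +/+ axons, and 21 to 25 higher and 20 to 24 lower in Hnrnpr-/- axons. Mitotic kinesins higher in axons numbered 10 to 13 in +/+, and transport kinesins lower in axons 8 to 11. The genotype contrasts gave 0 calls under each of 26 alternatives. With replicate number as a replicate block, 47 motor genes were called in +/+ (46 shared, with *Kif17* gained) and 47 in Hnrnpr-/- motoneurons (*Kif11* lost, *Dync2h1* gained), and the genotype contrasts stayed at 0. With culture as a replicate block, 47 were called in +/+ (44 shared), with *Kif6* and *Kifc5b* lost and *Kif1a* (-0.84, adjusted p = 0.036), *Kif14* and *Kif17* gained in edgeR, and the block changed no other call in Hnrnpr-/- motoneurons than that of *Kif11*. Libraries of equal number resembled each other most in 8 of 8 cases between compartments and in 3 of 8 between genotypes. Scaling by library totals moved the median of all genes by 0.15 in +/+ and 0.12 in Hnrnpr-/- motoneurons. Too few counts for a test were found in 4 motor genes.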
